A study of Mus musculus with 12 samples.

Results

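The Pdgfrβ knockout described here was compared with its controls in the stromal vascular fraction (SVF) of inguinal white fat from 12-month-old male mice. The SVF is the pool of cells left once the lipid-laden adipocytes have floated off, and it holds adipocyte progenitors, fibroblasts, mural and endothelial cells and leukocytes. The comparison uses 8 of the 12 libraries of the series, 4 of control mice and 4 of Pdgfrβ-KO mice, and 16344 of the 55536 genes listed, those that reached a value of 10 in 4 or more of these libraries. The remaining 4 libraries come from 2-month-old controls, in a second table whose 12-month control values all equal those used here, and are given only as values beside a few genes. The study bred Sma-CreERT2, a tamoxifen-inducible Cre driven by the smooth muscle actin promoter, with a Rosa26 reporter, and the knockout carried Pdgfrb fl/fl in addition. The sources differ on the controls. The labels list them as wild type, while a legend of the study calls the controls of this comparison Sma-Control, its name for Sma-CreERT2 with the reporter, and its text takes them from the 12-month libraries of the age experiment, for which it names no allele. In the knockout, recombination was induced by tamoxifen on 2 consecutive days with a washout of 7 days, and mice of both groups were kept at room temperature. The colony was of mixed C57BL6/J-129SV background, so strain alleles that differ between the groups cannot be told apart from loss of the receptor. Whether the sequenced controls received tamoxifen, and whether both groups were prepared together, is not given in the sources used here, so loss of the receptor, tamoxifen and preparation cannot be told apart, nor, should the controls be wild type as labelled, can Cre. Cre acts only in cells that express smooth muscle actin, while the RNA was taken from all cells of the fraction, so that receptor mRNA from unrecombined cells was read as well.

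PDGFRβ is a receptor tyrosine kinase on pericytes, smooth muscle cells and part of the adipocyte progenitors. PDGF-B dimers, released mainly by endothelial cells, bring receptor chains together, and the phosphorylated tails recruit phospholipase Cγ, adaptor proteins and PI3 kinase, which feed the Ras and MAP kinase cascade and a wave of immediate early transcription factors. In fat the receptor is known for holding mural cells to capillaries and for restraining adipocyte differentiation. IL-33 is an alarmin of fibroblastic and endothelial cells that acts on group 2 innate lymphoid cells (ILC2), and the study followed Il33 after this comparison as a link between PDGFRβ and beige fat.

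Each value is a normalized count, that is, the read count of a gene divided by a size factor of its library and rounded by the authors. Values summed to 19.9 to 20.6 M (M, 10 to the power of 6) per control library and 19.6 to 21.9 M per Pdgfrβ-KO library. Because the division evens out such sums, the underlying counts were estimated from the gaps that division and rounding leave among low values, at 20.3 to 29.0 M in controls and 13.8 to 19.97 M in Pdgfrβ-KO. The first principal component, with 41.1% of the variance, placed all controls between -41.2 and -28.1 and all Pdgfrβ-KO libraries between 17.2 and 48.5. The second, with 21.7%, set Pdgfrβ-KO replicates 3 and 4 (34.7 and 40.2) apart from Pdgfrβ-KO replicates 1 and 2 (-19.2 and -31.0) and from control replicate 2 (-34.2). Pdgfrβ-KO replicates 1 and 2 also had relatively more of short and less of long transcripts. With genes put in 5 groups of equal size by transcript length, their median log2 difference from the controls was 0.30 and 0.33 in the shortest group and -0.26 and -0.31 in the longest, while in the 6 other libraries the longest group minus the shortest ranged from -0.18 to 0.25. Its part in the results was not tested, so, for the lists described below, counts of called members that change by more than 1.5 times after correction for transcript length and GC content, without these 2 libraries or with 1 library left out are given with that value. Fibroblastic markers (25 of 26 passed the filter) summed to between 386694 and 533777 in controls and between 287806 and 403890 in Pdgfrβ-KO, and genes of mature adipocytes to between 111832 and 172116 and between 114571 and 182957, so both were present in every library.

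**Figure D1:**
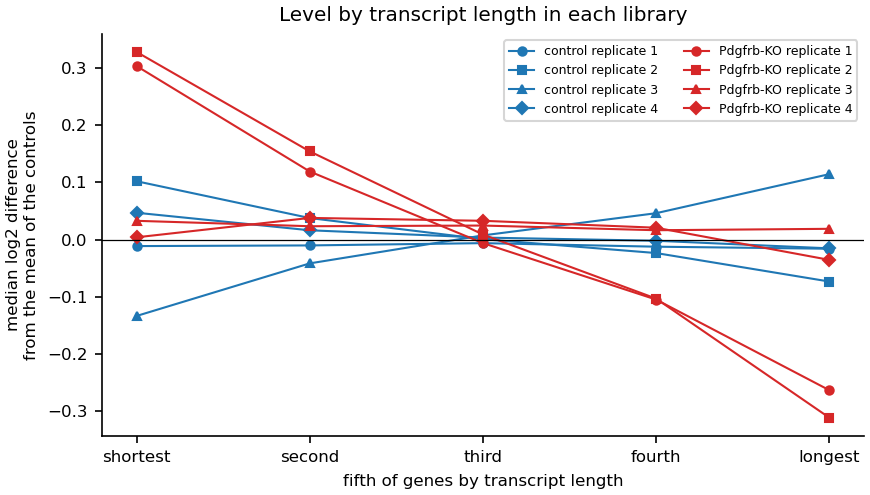
Median log2 difference from the mean of the 4 controls in 5 groups of genes ordered by transcript length (left, shortest), with 1 line per library (blue, control; red, Pdgfrβ-KO). Pdgfrβ-KO replicates 1 and 2 run from 0.30 and 0.33 in the shortest group to -0.26 and -0.31 in the longest, and Pdgfrβ-KO replicates 3 and 4 lie within 0.04 of 0.

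In the knockout SVF, 810 genes were higher and 729 were lower at an adjusted p under 0.05 (limma on log2(value + 1), two-sided, Benjamini-Hochberg over all genes tested), together 1539 or 9.42% of the genes tested, with 4.96% higher and 4.46% lower. Of these, 340 were higher and 261 lower by at least 1 on the log2 scale. The groups did not overlap in 2796 genes (17.1%). The shares of 4.96% higher and 4.46% lower stand beside every count of list members given below. Among the gene lists, replication and mitosis, macrophages, erythroid cells and neutrophils had the highest shares of higher members, and skeletal muscle, interstitial progenitors and basement membrane the highest shares of lower members. The median log2 fold change over all genes was -0.01. Differences are between whole fractions, in which fewer cells of a type and less RNA per cell cannot be told apart.

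Pdgfrb itself (ENSMUSG00000024620, chromosome 18 of GRCm38 from 61045150 to 61085061) had 3000, 4380, 3258 and 2399 in controls and 1882, 2145, 1707 and 1749 in Pdgfrβ-KO. The highest Pdgfrβ-KO value lay below the lowest control value, so the groups did not overlap, and the controls spread over a wider range than the knockouts. The difference was -0.77 on the log2 scale (SE 0.17, 95% confidence interval -1.14 to -0.41, adjusted p = 0.016 from limma), or 3259 ± 829 in controls and 1871 ± 197 in Pdgfrβ-KO (SD, n = 4 each). The exact permutation test over 70 regroupings gave a two-sided p of 0.0286, the smallest it can give. With each library left out in turn the adjusted p was 0.0075 to 0.0463, lower in Pdgfrβ-KO each time. The 2-month controls had 2536, 2367, 2349 and 2407, all above the knockouts and close to the lowest 12-month control.

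Of 7 ligands and receptors of the family, Pdgfrb was the single one called (2 were lower without Pdgfrβ-KO replicates 1 and 2, and 1 was higher without Pdgfrβ-KO replicate 4). Pdgfra, the sister receptor of fibroblastic progenitors, had 4322, 4580, 4844 and 3726 in controls and 4739, 4838, 6356 and 4039 in Pdgfrβ-KO, which overlap (log2 difference 0.18, adjusted p = 0.461 from limma). Pdgfb, the endothelial ligand of the deleted receptor, had 1379, 2007, 1703 and 1438 in controls and 1158, 1930, 1188 and 1681 in Pdgfrβ-KO (adjusted p = 0.636 from limma). Pdgfc, a ligand of the sister receptor, had 210, 218, 252 and 289 in controls and 370, 395, 313 and 283 in Pdgfrβ-KO (adjusted p = 0.0722 from limma), with 3 of 4 knockouts above every control.

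Downstream, 5 of 36 tested genes of PDGF receptor signalling were lower and 1 was higher, beside 4.46% and 4.96% over all genes. Plcg1, which encodes phospholipase Cγ1, had 4482, 4074, 4141 and 4037 in controls and 2788, 3110, 3241 and 3553 in Pdgfrβ-KO (log2 difference -0.40, adjusted p = 0.0373 from limma). Fyn, a Src family kinase, had 4660, 4053, 4706 and 4917 in controls and 3226, 3437, 3326 and 3403 in Pdgfrβ-KO, and the adaptor gene Nck2 changed by -0.45. The feedback inhibitors of the MAP kinase pathway Spry4 and Spred2 changed by -0.80 and -0.63, while Map2k1, the kinase MEK1 of that pathway, rose by 0.52. The lower genes numbered 1 without Pdgfrβ-KO replicate 1 or control replicate 3, 2 without control replicate 1 or 2, 3 without control replicate 4, and 2 without Pdgfrβ-KO replicates 1 and 2.

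Immediate early and PDGF-induced genes, which receptor signalling switches on within minutes to hours, were lower in 5 of 35 and higher in 0 (limma). Over all genes 4.46% were lower and 4.96% higher. Klf4, a zinc finger factor that also controls smooth muscle identity, had 19313, 22800, 20444 and 17870 in controls and 11337, 12299, 12119 and 11102 in Pdgfrβ-KO, with no overlap (-0.77 on the log2 scale, SE 0.11, adjusted p = 0.00225 from limma). Srf, the serum response factor that drives many genes of this class, had 2145, 1866, 1729 and 1596 in controls and 1314, 1455, 1280 and 1218 in Pdgfrβ-KO. Myc fell by 0.43, the nuclear receptor gene Nr4a2 by 0.62 and Egr2 by 0.60 on the log2 scale. Arid5b and Csrnp1, 2 genes that the study followed as PDGF targets, had log2 differences of -0.12 and 0.13 and did not pass (adjusted p = 0.502 and 0.599 from limma). After correction for transcript length and GC content, and again without Pdgfrβ-KO replicates 1 and 2, 10 were lower, 2 were without control replicate 1, 3 without control replicate 2 or 3, and 1 was higher without Pdgfrβ-KO replicate 4.

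**Figure D2:**
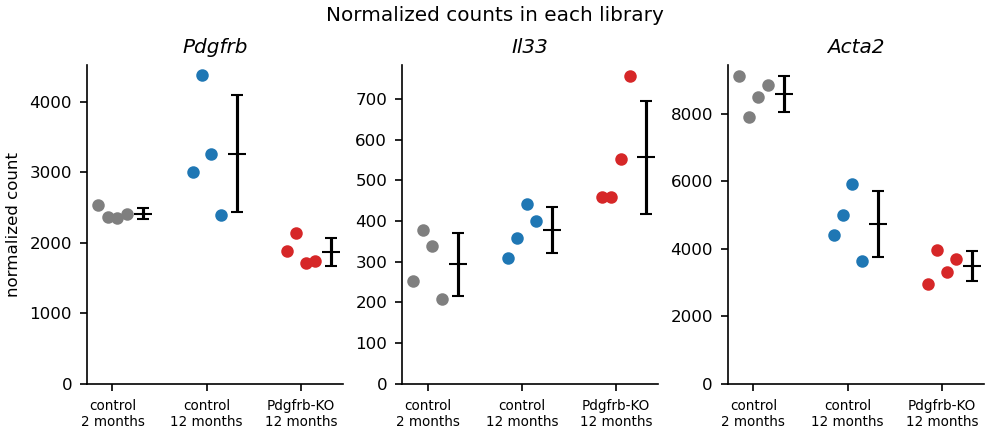
Normalized counts of Pdgfrb, Il33 and Acta2 in each library of the 2-month controls, 12-month controls and Pdgfrβ-KO, with 1 point per library and the mean ± SD beside the points. For Pdgfrb all 4 Pdgfrβ-KO points (1707 to 2145) lie below all 12-month controls (2399 to 4380), and for Il33 all 4 (459 to 755) lie above them (309 to 441).

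Il33 had 309, 358, 441 and 401 in controls and 460, 459, 551 and 755 in Pdgfrβ-KO, so each knockout library was above each control. The log2 difference was 0.54 (SE 0.18, 95% confidence interval 0.15 to 0.93), with p = 0.0286 in the exact permutation test, and an adjusted p of 0.0784 from limma over all genes, which misses the threshold of 0.05. The 2-month controls had 252, 377, 338 and 209. Pdgfrβ-KO replicate 4 had the highest value, and without it the log2 difference was 0.38 (adjusted p = 0.121 from limma). Il1rl1, the receptor of IL-33 on ILC2, had 280, 307, 428 and 456 in controls and 627, 355, 364 and 363 in Pdgfrβ-KO (adjusted p = 0.59 from limma), with 1 knockout well above the rest. Il13 stayed between 8 and 22 and Il5 between 0 and 3 normalized counts in all 8 libraries, which leaves these 2 cytokines of ILC2 close to the limit of detection. Gata3, the transcription factor of type 2 lymphocytes, had a log2 difference of -0.45 and did not pass (adjusted p = 0.11 from limma). Of 21 tested genes of IL-33 and type 2 immunity, 1 was higher (Il10) and 1 lower (Rora). These shares are close to the 4.96% higher and 4.46% lower over all genes. Without Pdgfrβ-KO replicates 1 and 2, 4 were higher. Il10, an anti-inflammatory cytokine, had 88, 112, 126 and 133 in controls and 595, 297, 281 and 204 in Pdgfrβ-KO (log2 difference 1.48, adjusted p = 0.00941 from limma). Rora, a nuclear receptor needed for ILC2 development, had 1332, 1402, 1502 and 1465 in controls and 1038, 887, 1079 and 897 in Pdgfrβ-KO (-0.55, adjusted p = 0.0082 from limma), and after correction for transcript length and GC content it did not pass (adjusted p = 0.0765 from limma).

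The broadest increase among the listed groups was in cell division. Of 30 genes of DNA replication and mitosis, 26 were higher and 0 lower in Pdgfrβ-KO (limma, against 4.96% higher over all genes), with a median log2 fold change of 1.09. The count was 26 whichever single library was left out, 26 after correction for transcript length and GC content and 23 without Pdgfrβ-KO replicates 1 and 2. Several of them, the kinase gene Cdk1, its partner cyclin gene Ccnb2, the gene of the anaphase activator Cdc20 and the topoisomerase gene Top2a, are shown by the 250 bases before their RefSeq start (GRCm38.p6, strand -, 5′ to 3′), since genes of the G2 and M phases share promoter elements. Capitals mark TTTGAA, the core of the cell cycle genes homology region, and CCAAT, the box bound by NF-Y, each on either strand.
Cdk1, chr10:69352913-69353162: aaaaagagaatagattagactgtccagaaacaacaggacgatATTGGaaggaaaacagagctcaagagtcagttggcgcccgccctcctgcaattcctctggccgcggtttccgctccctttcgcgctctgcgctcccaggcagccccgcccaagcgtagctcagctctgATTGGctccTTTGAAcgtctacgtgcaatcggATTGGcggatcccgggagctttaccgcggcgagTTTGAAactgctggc
Ccnb2, chr9:70421555-70421804: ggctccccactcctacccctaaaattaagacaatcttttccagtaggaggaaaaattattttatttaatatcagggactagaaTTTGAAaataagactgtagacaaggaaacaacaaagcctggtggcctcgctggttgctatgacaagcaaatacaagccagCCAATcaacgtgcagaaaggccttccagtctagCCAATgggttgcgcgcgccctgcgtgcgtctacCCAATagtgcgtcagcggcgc
Cdc20, chr4:118437344-118437593: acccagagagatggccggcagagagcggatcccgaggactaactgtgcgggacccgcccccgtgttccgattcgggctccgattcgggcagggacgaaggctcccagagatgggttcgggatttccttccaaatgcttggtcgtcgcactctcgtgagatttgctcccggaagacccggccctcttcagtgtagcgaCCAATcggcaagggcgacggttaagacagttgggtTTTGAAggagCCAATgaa
Top2a, chr11:99024190-99024439: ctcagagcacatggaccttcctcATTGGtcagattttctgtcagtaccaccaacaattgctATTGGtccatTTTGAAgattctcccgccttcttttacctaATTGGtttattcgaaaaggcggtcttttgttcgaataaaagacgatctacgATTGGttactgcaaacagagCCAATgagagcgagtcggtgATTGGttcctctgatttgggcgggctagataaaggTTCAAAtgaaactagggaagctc

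Cdk1, the kinase that drives entry into mitosis, had 110, 116, 114 and 139 in controls and 376, 363, 303 and 254 in Pdgfrβ-KO. Ccnb2, its cyclin, had 140, 147, 150 and 181 in controls and 441, 370, 284 and 357 in Pdgfrβ-KO. Top2a, which untangles chromosomes before they part, had 869, 734, 1003 and 1010 in controls and 2253, 1867, 2045 and 1905 in Pdgfrβ-KO. In these genes, each knockout library was above the highest control, and the differences were 1.42 (SE 0.16), 1.22 (SE 0.16) and 1.17 (SE 0.12) on the log2 scale, with adjusted p of 0.000691, 0.00126 and 0.000563 from limma. Cdc20, the activator of the anaphase promoting complex, had 252, 233, 246 and 251 in controls and 651, 648, 461 and 517 in Pdgfrβ-KO, and the kinetochore gene Cenpf 102, 122, 167 and 159 in controls and 392, 372, 394 and 379 in Pdgfrβ-KO. Mki67, whose protein Ki-67 marks cycling cells, changed by 1.01 and the Aurora kinase gene Aurkb by 1.61. The 4 members that did not pass belong to the replication machinery, the helicase genes Mcm2, Mcm4 and Mcm7 (0.37, 0.32 and 0.35 on the log2 scale) and the sliding clamp gene Pcna (-0.02). Outside the list, Pbk, a mitotic kinase, had 54, 88, 60 and 62 in controls and 421, 412, 278 and 209 in Pdgfrβ-KO, and Pimreg, a regulator of chromosome segregation, 61, 90, 61 and 47 in controls and 289, 316, 168 and 198 in Pdgfrβ-KO.

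Of the 26 higher genes, 21 had an entry in the RefSeq promoter table. CCAAT stood in 17 of these 21 windows of 250 bases (81.0%), against 33.8% of all 32851 windows. Both CCAAT and TTTGAA stood in 7 (33.3%), against 5.55% of all windows. These are matches of letters, which were not tested as sites.

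Among cell cycle inhibitors and D cyclins, 4 of 16 genes were higher and 0 lower, beside 4.96% and 4.46% over all genes. Cdkn2c, the inhibitor p18 of Cdk4 and Cdk6, had 437, 487, 378 and 422 in controls and 1073, 971, 630 and 727 in Pdgfrβ-KO, and Cdk4 itself 1744, 1779, 1517 and 1974 in controls and 2855, 3095, 2123 and 2136 in Pdgfrβ-KO. Lmnb1, the nuclear lamin B1, rose by 0.47. Cdkn2a, the gene of p16 and p19Arf that is widely used as a mark of senescence, had 21, 15, 23 and 27 in controls and 86, 52, 39 and 37 in Pdgfrβ-KO (1.22 on the log2 scale, SE 0.32, adjusted p = 0.036 from limma), values with a 2-month level of 10, 19, 6 and 6. Pdgfrβ-KO replicates 1 and 2 had the highest Cdkn2a values, and without both the adjusted p was 0.19. The count of higher genes was 1 when any of Pdgfrβ-KO replicates 1 and 2 and control replicates 1, 2 and 3 was left out, and 1 without both Pdgfrβ-KO replicates 1 and 2.

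**Figure D3:**
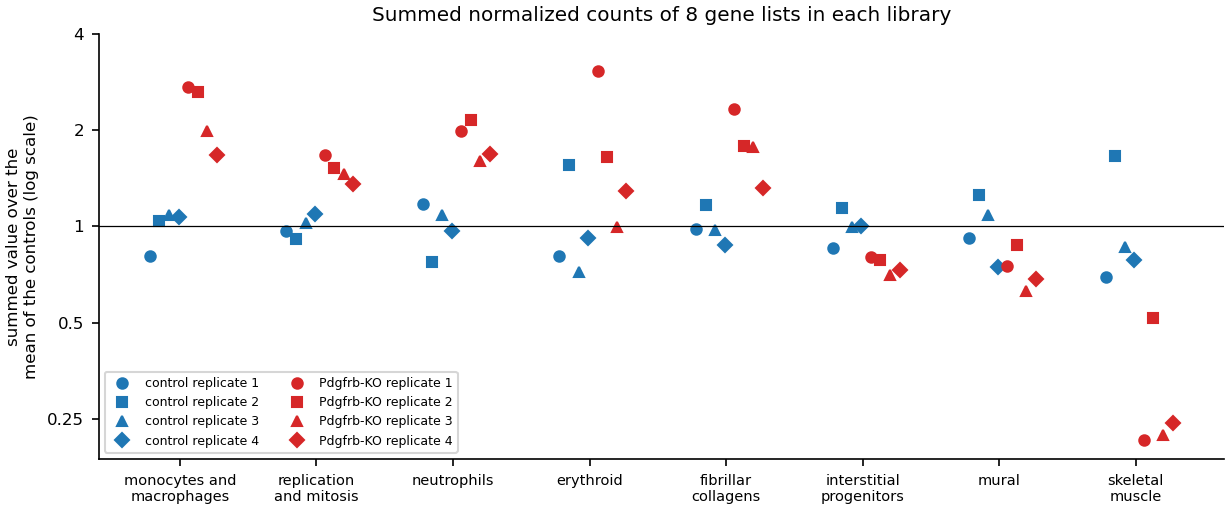
Summed normalized counts of the members of 8 gene lists in each library, divided by the mean sum of the 4 controls, on a log scale (blue, control; red, Pdgfrβ-KO; marker shape, replicate number). All Pdgfrβ-KO points lie above all controls for macrophages, for replication and mitosis, for neutrophils and for fibrillar collagens, and Pdgfrβ-KO replicate 2 is the highest of the knockouts for skeletal muscle.

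Macrophage genes rose together. Of 32 genes of monocytes and macrophages, 24 were higher and 0 lower (limma), with a median log2 fold change of 1.31, and their summed level was 54083 to 72561 in controls and 111758 to 182973 in Pdgfrβ-KO. The count was 20 to 25 with 1 library left out and 19 without Pdgfrβ-KO replicates 1 and 2. Perivascular and resident macrophages are long-lived cells that scavenge debris and proteins along vessels, and several of their genes were among those that rose. Mrc1, the mannose receptor, had 2836, 3176, 4408 and 3450 in controls and 9944, 8987, 9984 and 7247 in Pdgfrβ-KO. F13a1, the coagulation factor XIII subunit made by these cells, had 2990, 3495, 4689 and 3543 in controls and 11031, 11130, 11077 and 8580 in Pdgfrβ-KO. In both, the lowest knockout value was above the highest control, with differences of 1.39 (SE 0.16, adjusted p = 0.000667) and 1.52 (SE 0.15, adjusted p = 0.000374) from limma. The scavenger receptor genes Stab1 and Cd163 rose by 1.40 and 1.38, and Lyve1, the hyaluronan receptor shared by lymphatic vessels and perivascular macrophages, by 1.43. Csf1r, the receptor for the growth factor of macrophages, had 3187, 4197, 4886 and 4103 in controls and 7838, 8631, 6341 and 6459 in Pdgfrβ-KO, and it lies 0.0155 Mb from Pdgfrb. Among general markers, Lyz2, lysozyme, had 11579, 15615, 16347 and 16843 in controls and 33129, 28627, 21869 and 18362 in Pdgfrβ-KO (0.73, adjusted p = 0.0386 from limma), and Cd68 620, 1275, 1276 and 1092 in controls and 1477, 1490, 1527 and 1356 in Pdgfrβ-KO, which did not pass (adjusted p = 0.135 from limma).

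Further genes that rose mark the macrophages of lymph node sinuses and of the spleen as well as those of fat. Cd209b, the lectin SIGN-R1 of marginal zone and medullary macrophages, had 494, 615, 769 and 1033 in controls and 3131, 3711, 3000 and 3688 in Pdgfrβ-KO. Marco, a scavenger receptor of the same cells, had 382, 469, 481 and 1033 in controls and 3298, 4085, 1983 and 3421 in Pdgfrβ-KO, and Siglec1, the sialoadhesin CD169 of sinus macrophages, 425, 449, 828 and 619 in controls and 1628, 1483, 2368 and 2414 in Pdgfrβ-KO. These rose by 2.26, 2.50 and 1.78 on the log2 scale, with adjusted p of 0.000198, 0.000825 and 0.00114 from limma and no overlap. Cd5l, an apoptosis inhibitor secreted by tissue macrophages, had 73, 94, 70 and 187 in controls and 660, 602, 770 and 603 in Pdgfrβ-KO, and Slc40a1, the iron exporter ferroportin, 73, 178, 150 and 142 in controls and 605, 842, 588 and 563 in Pdgfrβ-KO. Fcna, the ficolin A of plasma, and Cbr2, a carbonyl reductase of resident macrophages, rose by 1.75 and 2.08, and Ms4a4a by 2.00. Inguinal fat holds a lymph node, and Glycam1 and Madcam1, made by the high endothelial venules of nodes, were the 2 higher genes among 12 of lymph node stroma and germinal centres. Glycam1 had 47, 32, 34 and 61 in controls and 263, 216, 257 and 109 in Pdgfrβ-KO, and Madcam1 16, 9, 10 and 18 in controls and 40, 53, 23 and 33 in Pdgfrβ-KO. That count was 1 without Pdgfrβ-KO replicates 1 and 2 and when control replicate 2 or 3 or Pdgfrβ-KO replicate 1 was left out. The summed level of the whole list was 6820 to 9523 in controls and 8125 to 10359 in Pdgfrβ-KO, which overlap, and that of B cell genes 46819 to 69725 and 55187 to 98396. T cell genes summed to 28125 to 53355 in controls and 33251 to 46596 in Pdgfrβ-KO. Their median log2 fold change was -0.24, with 20 of 28 below 0, and 0.03 without Pdgfrβ-KO replicates 1 and 2. The part of these lists in the macrophage values was not tested. Among B cell genes 2 of 20 were higher, including Vpreb3 (0.92), and among plasma cell genes 2 of 20, beside 4.96% over all genes. The higher plasma cell genes were Tnfrsf13b (0.67) and Ighg1, an immunoglobulin G constant gene in a cluster of similar genes. Ighg1 had 35, 46, 152 and 239 in controls and 1044, 429, 669 and 1517 in Pdgfrβ-KO. Higher B cell genes numbered 0 without control replicate 2 or 3 or Pdgfrβ-KO replicate 1, 1 without control replicate 1 or Pdgfrβ-KO replicate 3 or 4, and 7 without Pdgfrβ-KO replicates 1 and 2. Higher plasma cell genes numbered 1 after correction for transcript length and GC content and when any of control replicates 1, 2 and 3 or Pdgfrβ-KO replicate 1 or 3 was left out, and 6 without Pdgfrβ-KO replicate 2.

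Genes of a macrophage state linked to lipid were lower in part. Of 20 genes of lipid-associated macrophages, the cells that gather around dying adipocytes and digest their lipid, 7 were lower and 1 was higher (limma), against 4.46% and 4.96% over all genes. The median log2 fold change of the list was 0.03, with 11 members above and 9 below 0, and its summed level was 107314 to 144702 in controls and 137762 to 239997 in Pdgfrβ-KO, which overlap. Mmp12, macrophage elastase, had 349, 1577, 1118 and 757 in controls and 90, 35, 160 and 47 in Pdgfrβ-KO, a difference of -3.54 on the log2 scale (SE 0.51, adjusted p = 0.00205 from limma). Gpnmb, a glycoprotein of lipid-laden macrophages, had 3003, 5458, 4419 and 3736 in controls and 1558, 1457, 2123 and 1596 in Pdgfrβ-KO, and Itgax, the integrin CD11c, 438, 610, 943 and 597 in controls and 230, 196, 350 and 312 in Pdgfrβ-KO. In these 3 genes every knockout library lay below every control. Cd9 changed by -0.63, the protease gene Ctsk by -0.80, and Atp6v0d2 and Dcstamp, which act in the acidification and fusion of osteoclasts and giant cells, by -1.80 and -1.70. Apoe, the lipid carrier apolipoprotein E, was the higher member, with 51482, 63249, 54539 and 66966 in controls and 104523, 167004, 87208 and 84877 in Pdgfrβ-KO, and Pdgfrβ-KO replicate 2 stood above the rest. Without Pdgfrβ-KO replicates 1 and 2 the lower members numbered 4 and the higher 0. Higher members were also 0 when any of control replicates 1, 2 and 3 or Pdgfrβ-KO replicate 1 was left out, and 2 without Pdgfrβ-KO replicate 4. In the 2-month controls, Mmp12 had 55, 63, 44 and 84 and Gpnmb 1384, 1348, 1396 and 1367, so that the knockout values of Mmp12 lay close to those at 2 months. Since the 12-month controls stand in both comparisons, no test was run on this.

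Genes of alternative activation and eosinophils were higher in 5 of 17 and lower in 1 (3 lower without Pdgfrβ-KO replicates 1 and 2). The lectin genes Clec10a and Mgl2, which bind galactose on glycoproteins, had 2780, 3600, 2975 and 3930 in controls and 12302, 13563, 6589 and 5863 in Pdgfrβ-KO, and 1328, 1825, 1539 and 1348 in controls and 5254, 5730, 4060 and 3119 in Pdgfrβ-KO. Cd209d rose by 1.35, the inhibitory Fc receptor gene Fcgr2b by 0.89 and Chil3, the chitinase-like Ym1, by 2.72. Ear2, a ribonuclease of eosinophils and monocytes, fell from 120, 170, 213 and 189 in controls to 65, 63, 81 and 92 in Pdgfrβ-KO. The Fc receptor gene Fcgr1, for immunoglobulin G bound with high affinity, had 129, 146, 243 and 174 in controls and 670, 462, 629 and 511 in Pdgfrβ-KO (1.74, adjusted p = 0.000752 from limma). Among lysosomal genes 7 of 35 were higher and 0 lower, among them the cathepsin genes Ctsc (0.81), Ctsb (0.82) and Ctsz (0.59) and the mannosidase gene Man2b1 (0.44). That count was 1 without Pdgfrβ-KO replicates 1 and 2, 2 without Pdgfrβ-KO replicate 1 or control replicate 1 or 3, and 4 without control replicate 2. Of 24 chemokine genes 3 rose, Ccl6 with 1674, 2323, 2501 and 2572 in controls and 7698, 5624, 5907 and 4140 in Pdgfrβ-KO, Ccl9 (1.25) and the monocyte attractant Ccl12 (1.68), and 2 were lower, Cxcl9 and Cxcl14, given below. Beside these counts stand 4.96% higher and 4.46% lower over all genes. Without Pdgfrβ-KO replicate 4, 7 chemokine genes were higher, and after correction for transcript length and GC content 6 were higher and 4 lower. Lower chemokine genes numbered 4 without Pdgfrβ-KO replicates 1 and 2, and 1 when any library other than Pdgfrβ-KO replicate 2 was left out.

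Neutrophil genes were higher in 6 of the 12 tested and lower in 0. The list has 19 genes, and 7 were below the filter, so these counts hold for the 12 alone. Csf3r, the receptor of granulocyte colony-stimulating factor, had 179, 126, 214 and 146 in controls and 576, 405, 417 and 596 in Pdgfrβ-KO. S100a9, a subunit of calprotectin, had 147, 48, 96 and 61 in controls and 711, 485, 253 and 298 in Pdgfrβ-KO, and Cxcr2, the receptor for neutrophil chemokines, 21, 14, 36 and 16 in controls and 97, 95, 90 and 141 in Pdgfrβ-KO. No knockout library overlapped the controls in these 3 genes, with differences of 1.58, 2.31 and 2.30 (adjusted p = 0.00097, 0.00428 and 0.00135 from limma). Padi4, the enzyme that citrullinates histones in neutrophil traps, had 53, 18, 41 and 43 in controls and 411, 159, 257 and 216 in Pdgfrβ-KO. Slfn4, a myeloid schlafen, rose by 2.80, Cd300lf by 1.95, the decoy receptor gene Il1r2 by 0.92 and Il1b by 0.97. The summed level of the list was 1653 to 2509 in controls and 3410 to 4576 in Pdgfrβ-KO.

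Erythroid genes were higher in 5 of 9. Slc4a1, the anion exchanger of red cells, had 22, 23, 16 and 10 in controls and 170, 77, 65 and 59 in Pdgfrβ-KO, and Hbb-bt, a β-globin that shares reads with a near-identical neighbour, 3005, 5430, 2567 and 3454 in controls and 17774, 8898, 5697 and 5534 in Pdgfrβ-KO. Alas2, which starts heme synthesis in red cell precursors, rose by 0.79. Control replicate 2 and Pdgfrβ-KO replicate 1 were the highest of their groups for Hbb-bt, and the summed levels of the list were 47533 to 102592 and 65680 to 201790, which overlap. The count was 1 without Pdgfrβ-KO replicate 1 or 2 or control replicate 1 or 4, 2 without control replicate 3, 3 without Pdgfrβ-KO replicate 4, and 1 without Pdgfrβ-KO replicates 1 and 2.

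**Figure D4:**
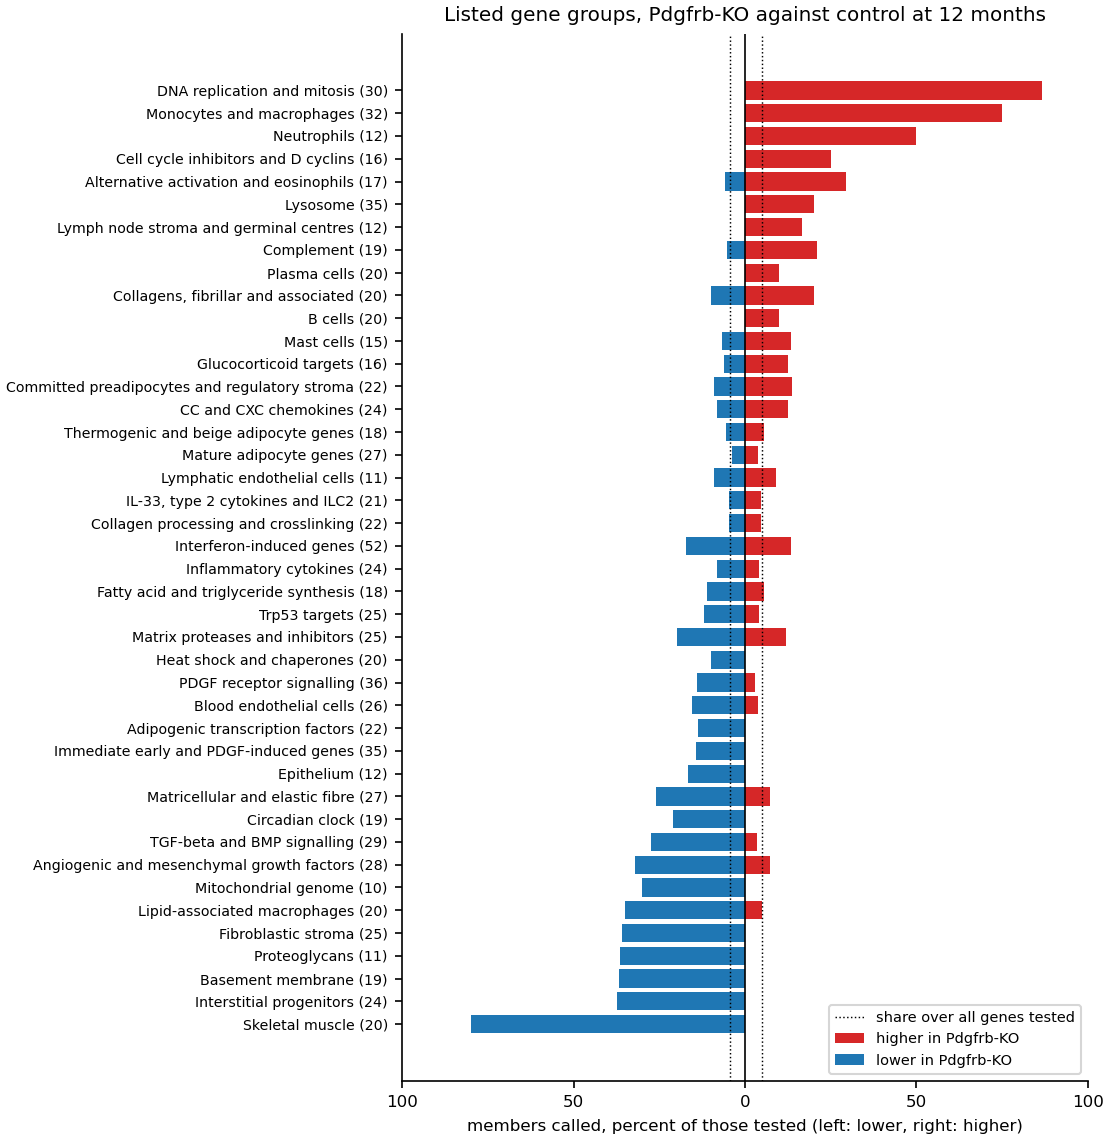
Share of the tested members of each list that were higher (red, right) or lower (blue, left) in Pdgfrβ-KO at an adjusted p under 0.05 from limma, in percent, for lists with at least 10 tested and at least 2 called members (number tested in brackets). Dotted lines give the shares over all genes, 4.96% higher and 4.46% lower, and replication and mitosis (26 of 30) and skeletal muscle (16 of 20) are at the 2 ends.

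Interferon-induced genes changed in both directions. Of 52 tested, 7 were higher and 9 were lower, with a median of 0.02. The higher genes encode sensors of double-stranded RNA and their partners, the oligoadenylate synthetases Oas1a, Oas1g, Oas2, Oasl1 and Oasl2, the helicase-like Dhx58 and Ifit3. The lower ones encode guanylate-binding proteins and immunity-related GTPases (Gbp4, Gbp6, Gbp9, Iigp1, Igtp, Tgtp1), the chemokine Cxcl9, the transcription factor Irf1 and Mx2. Type I interferon acts mainly on elements built on AANNGAAA, and interferon-γ on TTCNNNGAA. The windows of 3 higher and 2 lower genes are shown with these letters in capitals on either strand (250 bases before the RefSeq start, GRCm38.p6, 5′ to 3′ on the strand of the gene).
Oas1a, higher, chr5:120907526-120907775, strand -: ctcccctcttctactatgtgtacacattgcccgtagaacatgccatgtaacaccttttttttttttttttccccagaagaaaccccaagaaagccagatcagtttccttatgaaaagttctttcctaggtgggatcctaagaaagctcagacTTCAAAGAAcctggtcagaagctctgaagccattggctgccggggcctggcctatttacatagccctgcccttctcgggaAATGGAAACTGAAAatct
Oas1g, higher, chr5:120887614-120887863, strand -: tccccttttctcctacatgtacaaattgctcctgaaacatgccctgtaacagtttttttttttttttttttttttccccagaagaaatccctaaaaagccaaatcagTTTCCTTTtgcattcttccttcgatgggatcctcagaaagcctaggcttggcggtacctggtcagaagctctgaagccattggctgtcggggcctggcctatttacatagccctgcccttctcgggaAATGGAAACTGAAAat
Ifit3, higher, chr19:34583279-34583528, strand +: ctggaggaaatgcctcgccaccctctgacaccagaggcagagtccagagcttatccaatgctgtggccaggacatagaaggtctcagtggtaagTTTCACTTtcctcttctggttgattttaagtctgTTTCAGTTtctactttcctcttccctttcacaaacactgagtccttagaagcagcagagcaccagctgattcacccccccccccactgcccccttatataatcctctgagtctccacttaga
Tgtp1, lower, chr11:48992247-48992496, strand -: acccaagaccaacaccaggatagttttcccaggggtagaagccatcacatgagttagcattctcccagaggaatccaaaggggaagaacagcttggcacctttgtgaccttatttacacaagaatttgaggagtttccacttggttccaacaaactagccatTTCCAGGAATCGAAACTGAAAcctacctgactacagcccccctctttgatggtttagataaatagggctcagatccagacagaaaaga
Igtp, lower, chr11:58199306-58199555, strand +: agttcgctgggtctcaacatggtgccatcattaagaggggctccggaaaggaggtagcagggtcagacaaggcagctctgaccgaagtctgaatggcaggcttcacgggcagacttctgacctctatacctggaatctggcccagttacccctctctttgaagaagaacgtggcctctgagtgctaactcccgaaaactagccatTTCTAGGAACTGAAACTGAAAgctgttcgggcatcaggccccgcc

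Promoter windows were found for 5 of the 7 higher, 4 of the 9 lower and 29 of the 36 other genes. AANNGAAA stood in 4 of 5 higher, 2 of 4 lower and 20 of 29 other genes, against 21.3% of all windows. TTCNNNGAA stood in 1 of 5 higher, 3 of 4 lower and 8 of 29 other genes, against 7.02% of all windows. In Tgtp1 and Igtp a match of the first motif overlaps one of the second. The numbers are small and the difference between these shares was not tested.

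Oas1a had 247, 242, 287 and 284 in controls and 562, 559, 485 and 425 in Pdgfrβ-KO. Oas1g, a neighbour of similar sequence, had 32, 27, 40 and 43 in controls and 219, 116, 116 and 96 in Pdgfrβ-KO, and Oas2 268, 263, 375 and 304 in controls and 562, 552, 570 and 565 in Pdgfrβ-KO. The differences were 0.93 (SE 0.13), 1.86 (SE 0.28) and 0.91 (SE 0.13) with adjusted p of 0.00185, 0.00235 and 0.00205 from limma, and no knockout library overlapped a control. Dhx58, a regulator of RNA sensing, had 340, 296, 314 and 292 in controls and 574, 501, 547 and 523 in Pdgfrβ-KO, and Oasl1, Oasl2 and Ifit3 changed by 0.88, 0.60 and 0.49. On the lower side, Cxcl9, an attractant of T cells induced by interferon-γ, had 855, 1028, 1441 and 878 in controls and 525, 457, 333 and 442 in Pdgfrβ-KO. Tgtp1, a GTPase that attacks vacuoles of parasites, had 377, 259, 616 and 357 in controls and 79, 149, 92 and 168 in Pdgfrβ-KO, and Iigp1, of the same family, 4333, 4348, 5598 and 3975 in controls and 2334, 2909, 1940 and 1875 in Pdgfrβ-KO. They changed by -1.24 (SE 0.18), -1.71 (SE 0.29) and -1.02 (SE 0.16), with adjusted p of 0.00242, 0.00522 and 0.00311 from limma. Tgtp1 has a near-identical copy, and Iigp1 lies 0.653 Mb from Pdgfrb. Irf1, Gbp4, Gbp6, Gbp9, Mx2 and Igtp fell by 0.54, 0.80, 0.88, 0.63, 0.53 and 0.50 on the log2 scale. The 9 lower genes numbered 3 without control replicate 1 or 3, 4 without Pdgfrβ-KO replicate 1, 5 without Pdgfrβ-KO replicate 3, and 5 without Pdgfrβ-KO replicates 1 and 2. The higher genes numbered 5 to 9 with 1 library left out.

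**Figure D5:**
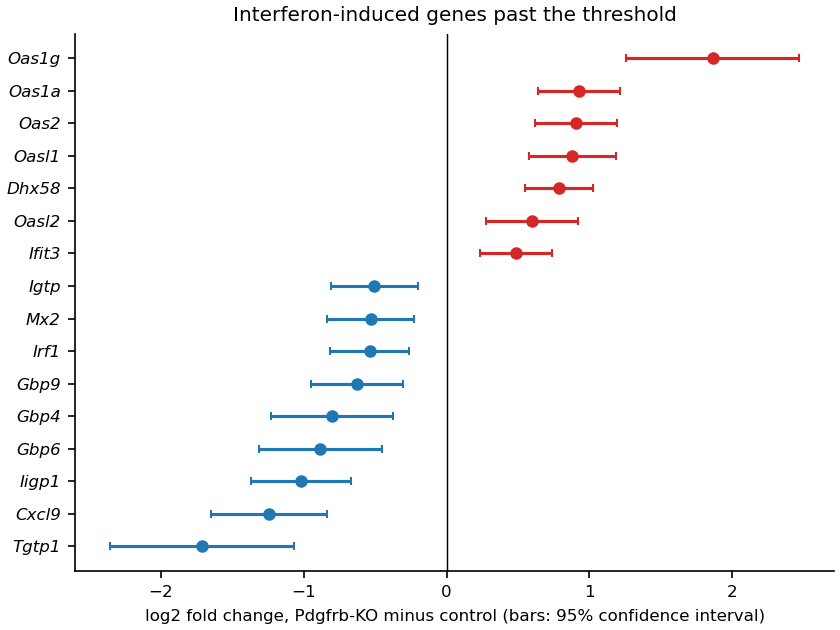
Log2 fold change of Pdgfrβ-KO minus control with its 95% confidence interval from limma for the 16 interferon-induced genes past the threshold (red, higher; blue, lower). Oas1g is highest at 1.86 and Tgtp1 lowest at -1.71.

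Stromal genes fell in part. Of 24 genes of interstitial progenitors, the Dpp4-positive cells of the collagen-rich septa that can give rise to other progenitors, 9 were lower and 0 higher (limma), with a median of -0.48. Pi16, a peptidase inhibitor that marks these cells, had 13074, 19454, 13049 and 17262 in controls and 7505, 8455, 5655 and 7027 in Pdgfrβ-KO. Igfbp5, a binding protein of insulin-like growth factors, had 16017, 21649, 20116 and 20941 in controls and 7379, 9237, 8307 and 7642 in Pdgfrβ-KO, and Gfpt2, which feeds the hexosamine pathway, 5127, 5681, 4977 and 5680 in controls and 3486, 3335, 3151 and 3366 in Pdgfrβ-KO. The groups did not overlap in these genes, and the differences were -1.13 (SE 0.17), -1.27 (SE 0.13) and -0.68 (SE 0.10) with adjusted p of 0.00247, 0.000448 and 0.00209 from limma. Dpp4 had 1971, 2023, 2362 and 2364 in controls and 1168, 1049, 1551 and 1770 in Pdgfrβ-KO, and the ligand gene Wnt2 280, 411, 398 and 447 in controls and 238, 229, 126 and 101 in Pdgfrβ-KO. Sbsn, Dact2, Limch1 and Tek fell by 1.38, 1.34, 0.73 and 0.48 on the log2 scale. Tek is also counted among the blood endothelial genes below. The count was 6 to 10 with 1 library left out and 9 without Pdgfrβ-KO replicates 1 and 2.

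Of 25 genes of fibroblastic stroma, 9 were lower and 0 higher, with a median of -0.36. Smoc2, a calcium-binding matrix protein, had 6871, 10002, 5801 and 5504 in controls and 2474, 2214, 1544 and 1538 in Pdgfrβ-KO, and Sfrp2, a secreted Wnt modulator, 3112, 2880, 3415 and 2969 in controls and 1128, 1648, 1022 and 1522 in Pdgfrβ-KO. Smoc2 changed by -1.85 (SE 0.21, adjusted p = 0.000738) and Sfrp2 by -1.24 (SE 0.15, adjusted p = 0.000992) in limma, each without overlap. Dcn, the proteoglycan decorin, had 44875, 58201, 53702 and 46055 in controls and 29274, 33231, 32525 and 31906 in Pdgfrβ-KO, Serpinf1, the secreted factor PEDF, changed by -0.75, and the lipid transporter gene Abca8a by -0.84. Among committed preadipocytes and regulatory stroma 3 of 22 genes were higher and 2 lower, beside 4.96% and 4.46% over all genes. Clec11a, a growth factor for skeletal and blood stem cells, had 500, 447, 516 and 474 in controls and 1243, 1244, 1275 and 966 in Pdgfrβ-KO, while the 2-month controls had 1417, 1756, 1637 and 1663. Igfbp4 rose by 0.67 and Apoe as given above, and Hsd11b1, which regenerates active glucocorticoid, and Cxcl14 fell by 1.00 and 0.70. The higher genes numbered 1 without Pdgfrβ-KO replicate 1 or control replicate 1 or 2, and 1 without Pdgfrβ-KO replicates 1 and 2. The lower genes numbered 5 after correction for transcript length and GC content, 4 without Pdgfrβ-KO replicate 2, and 1 when any of control replicates 1, 2 and 3 or Pdgfrβ-KO replicate 1 or 3 was left out.

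The chains of type I and type III collagen were higher. Of 20 fibrillar and associated collagen genes tested, 4 were higher and 2 lower. Col1a1, the α1 chain of type I collagen, had 79303, 82555, 70836 and 75480 in controls and 289034, 238996, 225625 and 162603 in Pdgfrβ-KO, and the 2-month controls 251254, 256881, 264914 and 310221. Each knockout library was thus above each 12-month control, with 1 knockout inside and 3 below the range of the 2-month controls. The log2 difference at 12 months was 1.54 (SE 0.17, adjusted p = 0.000662 from limma). Col1a2, the partner chain, had 100955, 109261, 100006 and 94096 in controls and 230472, 196459, 191667 and 145626 in Pdgfrβ-KO, and Col3a1, of type III collagen, 167426, 218084, 179696 and 150662 in controls and 439573, 293942, 305642 and 226516 in Pdgfrβ-KO. Col16a1 rose by 1.05, while Col6a6 and Col12a1 fell by 0.78 and 1.53 on the log2 scale. Adamts2, the protease that trims procollagen, had 3351, 3852, 3486 and 3106 in controls and 8093, 7103, 7166 and 5545 in Pdgfrβ-KO (1.01, adjusted p = 0.00127 from limma), and Lox, which crosslinks collagen, went down from 2529, 2836, 2982 and 2267 to 1217, 925, 1227 and 1400 (-1.16, adjusted p = 0.000924 from limma). Pdgfrβ-KO replicate 1 had the highest and Pdgfrβ-KO replicate 4 the lowest knockout value of Col1a1, Col1a2, Col3a1 and Col16a1. Without Pdgfrβ-KO replicates 1 and 2, Col3a1 did not pass (adjusted p = 0.134 from limma). Lower genes of the collagen list numbered 1 without Pdgfrβ-KO replicates 1 and 2 and without control replicate 1 or 2.

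Basement membrane genes were lower in 7 of 19 and higher in 0, among them Lama2, the laminin chain of muscle and nerve sheaths, with 5625, 6320, 6693 and 4701 in controls and 2065, 2006, 2948 and 2563 in Pdgfrβ-KO, Col4a3 (-1.62), Col4a4 (-1.22) and Lama5 (-0.65). Several of these transcripts are long, and the count was 4 after correction for transcript length and GC content, 3 without Pdgfrβ-KO replicates 1 and 2, and 3 without Pdgfrβ-KO replicate 1 or control replicate 2 or 3. It was 4 without control replicate 1 or Pdgfrβ-KO replicate 2. Of 27 matricellular and elastic fibre genes 2 were higher and 7 lower, beside 4.96% and 4.46% over all genes. Thbs2, thrombospondin 2, which binds and clears matrix proteases, had 2547, 2732, 2469 and 2616 in controls and 8395, 7369, 8934 and 6813 in Pdgfrβ-KO (1.597, SE 0.11, adjusted p = 4.14e-05 from limma), with a gap between the groups far wider than the spread in either. The 2-month controls had 1024, 1804, 1525 and 1196. Eln, elastin, was the other higher member, with 8939, 11659, 8869 and 7475 in controls and 21942, 20484, 11918 and 12247 in Pdgfrβ-KO, and the higher members numbered 1 without Pdgfrβ-KO replicates 1 and 2 and when control replicate 1 or 3 or Pdgfrβ-KO replicate 1 was left out. Fn1, fibronectin, had 22948, 25600, 32834 and 27391 in controls and 13073, 11910, 17195 and 16753 in Pdgfrβ-KO, and Tnxb, tenascin X, changed by -0.70. Among proteoglycans, Prelp, Aspn and Omd changed by -0.89, -1.05 and -1.08, and with Dcn they make 4 lower of 11, with 0 higher in limma (1 higher after correction for transcript length and GC content and without Pdgfrβ-KO replicate 2). Of 25 proteases and inhibitors 3 were higher and 5 lower. Plat, tissue plasminogen activator, had 3391, 3686, 3659 and 3156 in controls and 1709, 1652, 1510 and 1865 in Pdgfrβ-KO (-1.05, SE 0.10, adjusted p = 0.00038 from limma), Mmp3, stromelysin, changed by -0.76, and Mmp27 and the inhibitor gene Timp1 rose by 1.264 and 0.71. The higher genes numbered 0 without control replicate 1, 1 without control replicate 3 or Pdgfrβ-KO replicate 1 or 3, and 1 after correction for transcript length and GC content. Among abundant genes outside the lists, Olfml3, a secreted olfactomedin, had 1252, 1160, 1320 and 1071 in controls and 2912, 3603, 3303 and 2781 in Pdgfrβ-KO, and Spon1, the matrix protein F-spondin, 339, 403, 566 and 285 in controls and 1130, 1964, 1805 and 1340 in Pdgfrβ-KO. Hmcn2, a very long hemicentin, had 3195, 3766, 2457 and 1781 in controls and 528, 573, 302 and 519 in Pdgfrβ-KO, a change of -2.53 that was -2.32 after correction for transcript length and GC content. Fndc1, Plxdc2 and Itgbl1 fell by 1.04, 1.15 and 0.85 on the log2 scale.

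Growth factor genes of vessels and mesenchyme were lower in 9 of 28 and higher in 2. Igf1, insulin-like growth factor 1, had 1083, 1214, 1270 and 923 in controls and 1907, 2356, 2557 and 1730 in Pdgfrβ-KO, and Fgf10, which supports preadipocytes, 118, 163, 123 and 129 in controls and 278, 564, 531 and 234 in Pdgfrβ-KO, both without overlap (0.92 and 1.49, adjusted p = 0.00384 and 0.00722 from limma). Vegfc, the growth factor of lymphatic vessels, had 421, 537, 459 and 330 in controls and 181, 260, 138 and 199 in Pdgfrβ-KO. The angiopoietin genes Angpt1 and Angpt2 changed by -0.88 and -1.17, Dll4, the Notch ligand of sprouting tips, by -1.04, and Vegfa, with 2314, 2139, 2043 and 2092 in controls and 1568, 1915, 1646 and 1376 in Pdgfrβ-KO, by -0.41. The lower genes numbered 5 without control replicate 2 or 3. Of 29 genes of TGF-β and BMP signalling 8 were lower and 1 was higher. Bmp4, which commits progenitors to the adipocyte lineage, had 323, 487, 422 and 266 in controls and 136, 172, 109 and 177 in Pdgfrβ-KO, and Bmp3 186, 326, 262 and 416 in controls and 100, 85, 90 and 105 in Pdgfrβ-KO. These and Bmp6 (-0.76) and Tgfb3 (-0.65) had adjusted p of 0.00438, 0.00203, 0.00881 and 0.00307 from limma. The lower genes numbered 4 without control replicate 1 or 2, and the higher 0 without Pdgfrβ-KO replicates 1 and 2 and when any library other than Pdgfrβ-KO replicate 3 or 4 was left out. Il34, a second ligand of Csf1r made by stroma, had 458, 778, 400 and 457 in controls and 335, 310, 192 and 196 in Pdgfrβ-KO (-1.01, adjusted p = 0.0259 from limma), and Osmr, the receptor chain for oncostatin M, changed by -0.55.

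Mural cells, pericytes and smooth muscle, express the actin whose promoter drives the Cre. Of 31 mural genes 1 was lower and 0 were higher, beside 4.46% and 4.96% over all genes. The log2 fold change lay below 0 in 27 of them and above 0 in 4. Acta2, smooth muscle actin itself, had 4410, 4996, 5924 and 3630 in controls and 2961, 3980, 3317 and 3700 in Pdgfrβ-KO, which overlap (-0.43, SE 0.16, adjusted p = 0.111 from limma), and the 2-month controls had 9132, 7908, 8499 and 8846. Rgs5, a pericyte gene, had 12272, 22770, 13560 and 9832 in controls and 10597, 8218, 5746 and 5441 in Pdgfrβ-KO, with -0.94 on the log2 scale and an adjusted p of 0.0504 from limma. Myh11, smooth muscle myosin, had 6855, 5984, 9226 and 5285 in controls and 4043, 4599, 5173 and 5396 in Pdgfrβ-KO (adjusted p = 0.0969 from limma). The median over the list was -0.39 and Heyl, a Notch target, was the called member, at -0.94. The lower genes numbered 5 without control replicate 4, 4 without Pdgfrβ-KO replicates 1 and 2 and 3 after correction for transcript length and GC content, 2 without Pdgfrβ-KO replicate 2, and 0 without any of control replicates 1, 2 and 3 or Pdgfrβ-KO replicate 3. Blood endothelial genes were lower in 4 of 26 and higher in 1, beside 4.46% and 4.96% over all genes. The lower genes were Erg, the lineage factor, with 1120, 1683, 1747 and 1008 in controls and 681, 784, 617 and 935 in Pdgfrβ-KO, Nos3, Ptprb and Tek, at -0.76, -0.62 and -0.48, and the higher was Plvap, of fenestrated vessels, with 5610, 6720, 5885 and 4690 in controls and 8630, 13750, 6856 and 8973 in Pdgfrβ-KO. Lower endothelial genes numbered 0 without Pdgfrβ-KO replicate 1 or 3 or control replicate 2 or 3, and 2 without Pdgfrβ-KO replicate 2, without Pdgfrβ-KO replicates 1 and 2 and after correction for transcript length and GC content. The higher genes numbered 0 without Pdgfrβ-KO replicates 1 and 2 and when any library other than Pdgfrβ-KO replicate 3 was left out. In lymphatic endothelium, Lyve1 was the single higher gene of 11 and Sema3d (-0.72) the single lower, beside the same shares over all genes. Lower lymphatic genes numbered 3 after correction for transcript length and GC content, and 0 without Pdgfrβ-KO replicates 1 and 2 and when any of control replicates 2, 3 and 4 or Pdgfrβ-KO replicates 1 and 2 was left out.

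In the adipocyte lineage, the counts below stand beside 4.96% higher and 4.46% lower over all genes. Of 18 tested genes of thermogenic and beige adipocytes 1 was higher, Tnfrsf9 (CD137), with 164, 135, 207 and 188 in controls and 248, 292, 235 and 295 in Pdgfrβ-KO, and 1 lower, Ebf2, a factor that primes brown and beige precursors, with 965, 1185, 1039 and 921 in controls and 636, 693, 777 and 642 in Pdgfrβ-KO (-0.58, adjusted p = 0.0109 from limma). Without Pdgfrβ-KO replicates 1 and 2, 0 of these genes were higher and 2 lower in limma. The count of higher genes was 0 when any library other than control replicate 3 or Pdgfrβ-KO replicate 3 was left out, and 3 were lower without Pdgfrβ-KO replicate 2. Ucp1, the uncoupling protein of thermogenic fat, had 15, 13, 8 and 6 in controls and 11, 7, 0 and 5 in Pdgfrβ-KO and did not enter the test. Of 27 genes of mature adipocytes, Nnat was higher (0.91) and Retn was lower, with 4 lower without Pdgfrβ-KO replicates 1 and 2, 3 lower without Pdgfrβ-KO replicate 2 and 2 lower after correction for transcript length and GC content. Retn, the hormone resistin, had 203, 210, 157 and 174 in controls and 43, 70, 33 and 45 in Pdgfrβ-KO (-1.98, SE 0.23, adjusted p = 0.000794 from limma). Fads2 and Acss2, of lipid synthesis, fell by 0.91 and 1.02 (log2) and Scd2 rose by 0.41, among 18 genes. Higher genes of lipid synthesis numbered 2 after correction for transcript length and GC content, and 0 without Pdgfrβ-KO replicates 1 and 2 and when any library other than control replicate 2 or Pdgfrβ-KO replicate 1 or 4 was left out. Of 22 adipogenic transcription factors 3 were lower, Ebf2, Tcf7l1 (-0.60) and Zfp521 (-0.64), which restrains the lineage. Without control replicate 2 or 3, 1 was lower.

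Skeletal muscle genes, which do not belong to resident cells of fat, fell as well. Of 20 skeletal muscle genes 16 were lower and 0 higher, with a median of -1.74, and their summed level was 5068 to 12096 in controls and 1566 to 3781 in Pdgfrβ-KO. Myh4, the fast myosin of type IIb fibres, had 584, 1588, 1105 and 910 in controls and 60, 61, 56 and 49 in Pdgfrβ-KO (-4.10, SE 0.25, adjusted p = 1.56e-05 from limma). Ttn, titin, had 482, 636, 359 and 547 in controls and 73, 46, 57 and 75 in Pdgfrβ-KO, and Atp2a1, the calcium pump of fast fibres, 399, 1142, 650 and 590 in controls and 84, 256, 85 and 156 in Pdgfrβ-KO. Acta1, Pvalb and Neb changed by -2.06, -2.22 and -1.71. The values of Myh4 in the 2-month controls were 586, 392, 1440 and 878, beside the 12-month controls. Control replicate 2 and Pdgfrβ-KO replicate 2 had the highest sums of their groups, and the count was 9 without control replicate 2 and 10 without Pdgfrβ-KO replicate 1. Of 12 epithelial genes 2 were lower, Cldn4 with 99, 161, 21 and 329 in controls and 19, 7, 11 and 13 in Pdgfrβ-KO and Krt8 with 110, 208, 23 and 361 in controls and 11, 24, 16 and 30 in Pdgfrβ-KO, and control replicate 3 was low for both. The count was 0 without control replicate 1 or 2 and without Pdgfrβ-KO replicates 1 and 2, 1 without control replicate 4 or Pdgfrβ-KO replicate 1, 2 or 3, and 5 without control replicate 3. Gdpd3 had 2062, 2599, 234 and 1997 in controls and 68, 89, 61 and 28 in Pdgfrβ-KO and Eps8l1 261, 305, 420 and 69 in controls and 36, 31, 24 and 39 in Pdgfrβ-KO, each with 1 control far below the other 3, replicate 3 for Gdpd3 and replicate 4 for Eps8l1. Sox10, of Schwann cells, was the called member among 16 (-0.93), with 0 called without Pdgfrβ-KO replicates 1 and 2 and when any library other than control replicate 3 or Pdgfrβ-KO replicate 3 or 4 was left out.

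Genes of the mitochondrial genome were lower in 3 of 10, mt-Nd4, mt-Nd2 and mt-Cytb, which encode subunits of the respiratory chain. mt-Nd4 had 5312, 7997, 11486 and 6687 in controls and 2292, 2758, 3686 and 5151 in Pdgfrβ-KO (-1.19, adjusted p = 0.0205 from limma), and mt-Nd2 and mt-Cytb changed by -0.94 and -0.77. The count was 0 without Pdgfrβ-KO replicate 1, without control replicate 2 or 3 and without Pdgfrβ-KO replicates 1 and 2, and 1 without Pdgfrβ-KO replicate 2. Without Pdgfrβ-KO replicate 4, 1 was higher. Of 40 nuclear genes of oxidative phosphorylation 1 was higher, Sdhb, at 0.55, and 10 were without Pdgfrβ-KO replicate 4, against 0 without any other library and without Pdgfrβ-KO replicates 1 and 2. Of these 40 genes, 37 lay above 0, with a median log2 fold change of 0.32. The median was 0.19 after correction for transcript length and GC content and 0.09 without Pdgfrβ-KO replicates 1 and 2. In the circadian clock 4 of 19 genes were lower, including Npas2, a partner of Bmal1, with 203, 190, 159 and 132 in controls and 48, 73, 40 and 77 in Pdgfrβ-KO, Nfil3 (-0.56) and Bhlhe40 (-0.54). Of 16 glucocorticoid targets Fkbp5 had 1502, 1759, 2128 and 1953 in controls and 3818, 3430, 3248 and 3222 in Pdgfrβ-KO (0.91, adjusted p = 0.00157 from limma) and Tsc22d3 rose by 0.59. Together 2 of these targets were higher and 1 lower, beside 4.96% and 4.46% over all genes. Without Pdgfrβ-KO replicates 1 and 2, 1 was higher and 3 were lower. When any library other than control replicate 4 or Pdgfrβ-KO replicate 4 was left out, 1 was higher. Among 25 targets of Trp53, Sesn1 rose by 0.55 and Plk2, Eda2r and Tnfrsf10b fell by 0.73, 1.03 and 0.65 on the log2 scale, with 5 lower after correction for transcript length and GC content and 5 without Pdgfrβ-KO replicates 1 and 2. The shares over all genes were 4.96% higher and 4.46% lower. Heat shock genes were lower in 2 of 20, Hspb8 (-0.79) and Hspa8 (-0.41), beside 4.46% over all genes. When any library other than Pdgfrβ-KO replicate 2 was left out, 1 was lower. The p38 cascade had 0 of 21 called in limma and 1 higher after correction for transcript length and GC content.

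Single genes showed the widest gaps. Mrap2, an accessory protein of melanocortin receptors (chromosome 9 of GRCm38, 87144306 to 87184045), had 1, 0, 1 and 0 normalized counts in controls and 765, 750, 524 and 566 in Pdgfrβ-KO (adjusted p = 2.30e-07 from limma). The 2-month controls had 8, 0, 0 and 0, so that no control library of either age exceeded 8, and its log2 fold change of 8.83 depends on the value of 1 added before the logarithm (9.54 with 0.5 and 6.88 with 5). Irgc1, a GTPase of the interferon-inducible family (chromosome 7, 24431922 to 24452297), had 17, 9, 16 and 18 in controls and 335, 303, 303 and 373 in Pdgfrβ-KO (4.40, SE 0.23, adjusted p = 7.07e-06 from limma), and 11, 6, 4 and 3 at 2 months. Npl, which breaks down sialic acid, had 95, 111, 114 and 101 in controls and 517, 546, 520 and 417 in Pdgfrβ-KO, and Nxpe5 92, 70, 79 and 69 in controls and 693, 402, 343 and 419 in Pdgfrβ-KO. Plppr3 had 67, 78, 62 and 66 in controls and 216, 624, 406 and 265 in Pdgfrβ-KO. Mrgprg, an orphan G protein-coupled receptor, had 262, 279, 171 and 227 in controls and 16, 13, 62 and 43 in Pdgfrβ-KO, Scg3, a granin of secretory granules, changed by -1.98 and Xlr3b, of a repeated X-linked family, by -1.67.

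A stretch of Trim genes on chromosome 7 (GRCm38, 104244457 to 104507849) carried some of the largest decreases. These genes encode antiviral ring finger proteins of similar sequence, between which reads can be shared. Trim12a had 1692, 1431, 1422 and 1515 in controls and 81, 38, 16 and 5 in Pdgfrβ-KO, and 0, 3, 6 and 1 at 2 months. Trim5 had 350, 293, 281 and 336 in controls and 25, 4, 4 and 3 in Pdgfrβ-KO, and 2, 1, 3 and 0 at 2 months. For both, the 12-month controls stood apart from the other 8 libraries. Strain alleles of the mixed colony were not tested as a source of this pattern. Trim34a and Trim30d changed by -2.84 and -3.27, with 136, 137, 109 and 125 and 15, 20, 15 and 8 at 2 months. Within the same stretch Trim34b went up, with 20, 14, 12 and 8 in controls and 86, 77, 98 and 126 in Pdgfrβ-KO, and 163, 181, 137 and 135 at 2 months, and Trim30c changed by 1.31. Other genes of the stretch did not pass. Trim12c had 1103, 1016, 1162 and 1185 in controls and 990, 948, 1067 and 1151 in Pdgfrβ-KO (-0.11, adjusted p = 0.547 from limma). Trim30a and Trim30b changed by 0.14 and -0.52 (adjusted p = 0.573 and 0.335 from limma). Gvin1, a large interferon-induced GTPase further along (106156556 to 106215326), had 212, 156, 445 and 203 in controls and 30, 75, 99 and 112 in Pdgfrβ-KO, and 3, 1, 0 and 2 at 2 months. On chromosome 7 as a whole 157 of 1243 tested genes were called (12.6%), the highest share of a chromosome, and on chromosome 16 37 of 486 (7.61%), the lowest.

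Around the targeted gene, 8 of the 34 tested genes within 1 Mb of Pdgfrb were called (23.5%), 9 of 41 within 2 Mb (21.95%), 12 of 68 within 5 Mb (17.6%) and 17 of 106 within 10 Mb (16.0%), beside 9.42% over all genes and 20 of 328 on the rest of chromosome 18 (6.10%). Of the 8, 3 were higher, Csf1r, Arhgef37 (0.81) and 1500015A07Rik, an antisense transcript, with 97, 63, 79 and 91 in controls and 344, 362, 259 and 267 in Pdgfrβ-KO. The other 5 were lower, Slc6a7, a proline transporter 0.0309 Mb before Pdgfrb, with 47, 93, 51 and 58 in controls and 14, 21, 13 and 11 in Pdgfrβ-KO, Ablim3, Iigp1, and the predicted GTPases Gm4951 and F830016B08Rik, with 108, 105, 256 and 146 in controls and 57, 63, 76 and 59 in Pdgfrβ-KO and 45, 18, 56 and 18 in controls and 5, 4, 1 and 11 in Pdgfrβ-KO. Ablim3, an actin-binding protein, had 4155, 6646, 4923 and 3581 in controls and 2864, 2535, 1932 and 2584 in Pdgfrβ-KO (-0.94, adjusted p = 0.0116 from limma). In the 2-month controls Slc6a7 had 14, 13, 11 and 9 and 1500015A07Rik 87, 66, 91 and 65. Piezo2, a mechanically gated channel 1.93 Mb away, changed by -1.24. Loss of the receptor and alleles linked to the floxed gene cannot be told apart in this design.

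Some of the genes named above passed in the full comparison but seldom with 1 library left out. Hspa8 passed in 0 of the 8 such fits, and Dcstamp, Plcg1, Arhgef37, Lyz2, Igtp, Egr2, Plvap, Sdhb, Timp1, Vegfa and Cxcl14 in 1 of 8. In 2 of 8 it was Tnfrsf13b, Col3a1, Tnfrsf9, Mx2, Osmr, Krt8, Tsc22d3, Piezo2, Lmnb1, Alas2, Cdk4 and Xlr3b, and in 3 of 8 Lama5, Heyl, Tcf7l1, Srf, Gbp4, mt-Cytb, Sema3d, Scd2, Igfbp4, Sox10, Spry4, Nos3, Cdkn2a, Eln, Hbb-bt, Tek and Ptprb. Each of these fits has fewer libraries. Each library is a biological replicate by its label, so p-values set the group difference against the spread between these animals. Any difference of preparation between the groups would be part of the group difference.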

How the data were processed

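RNA of the SVF was sequenced as polyA-selected directional libraries, 1 per mouse. Per the labels and the study, reads were trimmed with Trim Galore (0.6.0, with cutadapt), checked with FastQC, aligned to GRCm38 with STAR (2.7.0e) and normalized with DESeq2 (1.26.0), the tools that the submitters' processing notes name. The setting of read counting for strand and shared reads is not given in the sources used here. The values deposited by the authors are counts divided by a size factor and rounded, and were treated as a score, not as raw counts, so no count model was run. Gene coordinates are those of GENCODE vM21 (GRCm38), and promoter sequences are from RefSeq (GRCm38.p6). The table held 0 other columns of values per sample.

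Genes that reached a value of 10 in 4 or more of the 8 libraries compared were tested on log2(value + 1) with limma (3.58.1, R 4.3.3, trended and robust variance, two-sided), control and Pdgfrβ-KO only, with Benjamini-Hochberg adjustment over all of them and a threshold of 0.05. Fold changes on this scale understate the change of low genes. Single values were also tested by an exact permutation test over samples (Python 3.11.15). The scripts were tested on simulated data. Alternatives were pseudocounts of 0.5 and 5, no filter, a mean of at least 50, upper quartile and quantile scaling, limma without trend and robust estimation, library weights, a replicate block and leaving out each library. A correction for transcript length and GC content and the fit without Pdgfrβ-KO replicates 1 and 2 were added after seeing the data.

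The comparison, its 55 gene lists and the genes named were chosen with earlier results of these data known. Named were genes the study followed, the 20 higher and 20 lower genes with the largest change (mean of at least 100, no overlap, named genes only), the 10 of each direction with the smallest p (mean of at least 1000), from each list at most 4 called members and at most 3 that did not pass, genes of counts of 5 or fewer, and the 10 called genes nearest to Pdgfrb. Trim34b, Trim12c, Trim30a, Trim30b, Cd163, Aurkb, Siglec1, Ccnb2, Oasl1, Mki67, Limch1, Dact2, Trim30c, Ctsk, Angpt1, Dll4, Angpt2, Gbp6, Wnt2, Ifit3, Irf1, Gbp9, Atp6v0d2, Dpp4, Oasl2, Gbp4, Dcstamp, Mx2, Lyz2, Igtp, Vegfa, Pdgfc, Gata3, Mcm2 and Il1rl1 were chosen after their values were seen. No count or median of a list is a test of the list. Some genes of these lists are not reported here by name.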

Additional observations from a re-analysis of the deposited data

Results flagged for a closer look

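In 30 of 580 groups of 4 libraries looked at, the highest or lowest library lay so far from the others that its gap to the nearest other, over the range of the group, passed the 95% critical value of Dixon. Chance flags about 1 in 20 groups. Control replicate 2 was the library set apart in 10 and Pdgfrβ-KO replicate 1 in 6 of them.

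Control replicate 2 was the highest control for Alas2 (1838, others 1159 to 1227), Serpinf1 (13216), Il34 (778), Acta1 (1361), Pvalb (556) and Hspb8 (3338), and the lowest for Irf1 (13848), Hspa8 (54311) and Mcm4 (712). It was also the highest for the sum of immediate early and PDGF-induced genes (639497, others 545782 to 548653). Control replicate 4 was the highest control for Marco (1033), control replicate 3 the lowest for Col12a1 (345), and control replicate 1 the lowest for the sum of monocyte and macrophage genes (54083, others 69522 to 72561).

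Pdgfrβ-KO replicate 1 was the highest knockout for Mki67 (2406), Il1b (2396), Slc4a1 (170), Oas1g (219), Il1rl1 (627, others 355 to 364) and Trim5 (25). Pdgfrβ-KO replicate 2 was the highest for Slc40a1 (842), Dcstamp (14), Nnat (668) and Pvalb (176), and for the sums of fibroblastic stroma (403890), skeletal muscle (3781, others 1566 to 1770) and growth factor genes (26177). Pdgfrβ-KO replicate 3 was the highest for Eda2r (67). Pdgfrβ-KO replicate 4 was the highest for Cxcr2 (141) and the lowest for F13a1 (8580, others 11031 to 11130) and Clec11a (966). The part of these libraries in the results was not tested beyond the fits that leave them out.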

How the results depend on the processing

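Depth limits genes near the filter, and 4 libraries a group limit all calls. With 1 library left out, 481 to 1094 genes were higher and 358 to 831 lower, the counts moving by more than 1.5 times without control replicate 1 (481 and 428), 2 (529 and 367) or 3 (517 and 358) or Pdgfrβ-KO replicate 1 (481 and 447). Without Pdgfrβ-KO replicates 1 and 2, 472 were higher, and Il33 passed at 0.78 (adjusted p = 0.0277 from limma). The cause was not tested, and fewer libraries entered these fits. Over 19 alternatives Pdgfrb passed in 19, at -0.91 to -0.62 on the log2 scale, and Il33 in 2, with adjusted p of 0.0235 to 0.191 and with 0.38 to 0.62 when 1 library was left out. Of the 218 called genes named, 171 passed without trend and robust estimation, 208 after correction for transcript length and GC content, 154 without Pdgfrβ-KO replicates 1 and 2, and 159 to 205 with 1 library left out, and 0 reversed. Among 17 genes not called that were followed through the alternatives, sign changed at 0.0372 for Arid5b after the correction, at -0.0815 for Csrnp1 without Pdgfrβ-KO replicates 1 and 2, and at 0.0094 and 0.11 for Pcna without control replicate 4 or Pdgfrβ-KO replicate 4. Replicate numbers did not pair the samples consistently: deviations from the group means correlated at -0.11, 0.59, 0.37 and -0.10 for numbers 1 to 4, and only number 2 matched its own number best. Any pairing of samples in preparation is not given in the sources used here. With the replicate block 1200 genes were higher and 1180 lower, Pdgfrb stood at -0.77 (adjusted p = 0.00351 from limma) and Il33 passed at 0.54 (adjusted p = 0.0235).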
